A study of Mus musculus with 13 samples.

Results

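Ctla2a (ENSMUSG00000044258) and Ctla2b (ENSMUSG00000074874) are a pair of neighbouring mouse genes that encode small inhibitors of cysteine proteases. Of the 32285 genes of the count tables they were chosen by their levels under MPA+E against placebo, because both were far more abundant in mammary fibroblasts of hormone-treated mice than of placebo mice, so that contrast is described here without a test. The 2 genes were followed over 100523 fibroblast barcodes from 13 single-cell RNA-seq libraries, and over the other cell classes that the same libraries held. A barcode counted as a fibroblast if it had 500 to 7500 detected genes, at most 10% mitochondrial UMIs, at least 50 UMIs of Dcn, Lum and Col1a2 per 10000, and no UMI of Epcam, Pecam1, Rgs5, Sox10, Ptprc or Myog.

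The study asked how mammary fibroblasts change with development, ovarian hormones and tumour formation. Lin-CD24- stromal cells were sorted from wild-type C57BL/6 females at puberty (4 weeks in the labels, slightly older in the study's methods), in the adult virgin (9 weeks), on day 14.5 of pregnancy, day 10 of lactation and day 4 of involution, with 2 females pooled in 1 library for each stage. Females of 9 weeks carried a placebo pellet (placebo 1 and 2) or a pellet of medroxyprogesterone acetate and estradiol (MPA+E 1 and 2), with 2 females in each library and the same sort. GFP+ cells were sorted from raGFP-Wnt1 females, which carry Pdgfra-GFP and an MMTV-Wnt1 transgene on a mixed C57BL/6 FVB background. In those mice MMTV drives Wnt1 in the mammary epithelium, and the GFP sort selects Pdgfra-positive cells. Hyperplasia 1 and tumour 1 came from a single mouse of 45 weeks, hyperplasia 2 and tumour 2 from another of 17 weeks. Strain, genotype, sort and age all differ between these 4 libraries and the normal glands and cannot be told apart.

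Ctla2 proteins resemble the propeptide that holds cathepsin L-like proteases inactive, and CTLA-2 alpha inhibits cathepsin L. They were first found in activated T cells and mast cells and are also known from the pregnant uterus of rodents. Their genes lie in a rodent cluster that also holds cathepsins of the placenta. MPA is a progestin, a ligand of the progesterone receptor that also binds the glucocorticoid receptor. These receptors recognise the same DNA hexamer, AGAACA, in inverted pairs, whereas estrogen receptors recognise inverted pairs of GGTCA. The libraries measure transcripts only, so no inhibitor activity was measured.

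Both genes lie on the minus strand of mouse chromosome 13 (GRCm38), Ctla2b at 60895350 to 60897447 and Ctla2a at 60934155 to 60936625, with 36707 bases between them. The 250 bases before each RefSeq start (GRCm38.p6) are shown for both members, which were chosen together by their levels under MPA+E against placebo. Capitals mark matches to AGAACA (read as TGTTCT on this strand) or GGTCA, searched on both strands, and the last base printed lies next to the start.
Ctla2a, chr13:60936626-60936875, minus strand: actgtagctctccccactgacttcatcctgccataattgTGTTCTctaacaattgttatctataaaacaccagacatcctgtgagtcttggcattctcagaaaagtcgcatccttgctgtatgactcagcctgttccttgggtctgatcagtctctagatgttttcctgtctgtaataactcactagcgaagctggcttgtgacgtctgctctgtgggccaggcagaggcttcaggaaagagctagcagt
Ctla2b, chr13:60897448-60897697, minus strand: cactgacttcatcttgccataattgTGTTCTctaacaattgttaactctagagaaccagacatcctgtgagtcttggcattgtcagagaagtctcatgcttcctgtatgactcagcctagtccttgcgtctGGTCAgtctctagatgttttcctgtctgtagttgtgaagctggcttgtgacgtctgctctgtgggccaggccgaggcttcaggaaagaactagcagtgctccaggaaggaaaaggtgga
The aligned parts of these promoters were 91.2% identical over 228 bases. Each held AGAACA once, 211 bases before the start of Ctla2a and 225 before that of Ctla2b, and 16.1% of 32851 RefSeq promoters of the same length held at least 1 such hexamer. GGTCA was present only in Ctla2b, 119 bases before the start, and 35.2% of promoters held it. Neither promoter held an inverted pair of AGAACA or of GGTCA with 3 bases between the arms.

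Few stretches of read length were shared between the genes themselves. The longest open reading frames were 96.2% identical over 342 aligned bases, but the untranslated 3′ ends only 80.1% over 351. Of the 1284 windows of 90 bases in the Ctla2a transcript, 2 were also present in Ctla2b. None of the 411 windows in the last 500 bases of Ctla2a, the part that a 3′ library reads, occurred in Ctla2b, and 2 of the 411 in Ctla2b occurred in Ctla2a. Of the 1284 windows of Ctla2a, 269 also occur in an annotated gene outside the pair, and of the 753 windows of Ctla2b, 591 do. Those genes were Gm49391 for both, Gm49392 for Ctla2b and, for Ctla2a, the long non-coding RNA Kcnq1ot1, which shares 20 windows with the Ctla2a transcripts. Gm49391 and Gm49392 are read-through genes that overlap the pair and were not among the genes of the count tables.

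The libraries held 120355 barcodes and 56551189 to 112550204 UMIs each. Fibroblasts numbered 4236 to 11951 per library, 84.7% to 94.5% of the barcodes that passed the gene and mitochondrial limits. Their median depth ran from 3990 UMIs in pregnancy to 20256 in tumour 2, so shares of cells with a UMI are also given after thinning to 2000 UMIs per cell. Cells with fewer UMIs were left out of the thinned shares, 1.42% to 11.4% of the fibroblasts of a library, most in pregnancy. Libraries shared 5 to 51 barcodes per pair, at most 0.5395% of the smaller one. Levels are given as CPM, the UMIs of the gene per 1000000 UMIs summed over the fibroblasts of a library. All intervals are 95% exact Poisson or binomial intervals, which cover counting error only.

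Ctla2a was low in fibroblasts of the puberty and adult glands and among the most abundant transcripts after MPA+E. The puberty library measured 8.91 CPM (8.09 to 9.79), adult 12.9 (12.1 to 13.8), pregnancy 68.0 (65.7 to 70.4), lactation 64.9 (62.9 to 66.9) and involution 81.8 (79.7 to 83.9). It measured 8.05 and 11.4 CPM in placebo 1 and 2, and 1674 and 1375 CPM in MPA+E 1 and 2. In the raGFP-Wnt1 mice it measured 16.4 and 14.3 CPM in hyperplasia 1 and 2, and 371 and 199 CPM in tumour 1 and 2. The libraries thus fell into 4 tiers with gaps between them, namely puberty, adult, placebo and hyperplasia, then pregnancy to involution, then the tumours, then MPA+E. Among all genes ordered by level, Ctla2a ranked 105 and 132 in the MPA+E libraries, 401 and 756 in the tumours, and 7861 at puberty.

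Ctla2b followed a similar course at a far lower level, and the 3′ UMI counts compared here need no scaling to length. The puberty library had 3 UMIs, adult 2, pregnancy 7, lactation 22 and involution 38, which is 0.0616, 0.0271, 0.147, 0.349 and 0.512 CPM. Placebo 1 and 2 held 1 and 3 UMIs (0.0144 and 0.0416 CPM), against 454 and 524 UMIs in MPA+E 1 and 2 (5.22 and 5.75 CPM). Hyperplasia 1 and 2 held 8 and 15 UMIs (0.142 and 0.207 CPM), against 627 and 503 in tumour 1 and 2 (6.12 and 5.73 CPM). Unlike Ctla2a, Ctla2b reached about the same level in the tumours as under MPA+E.

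**Figure D1:**
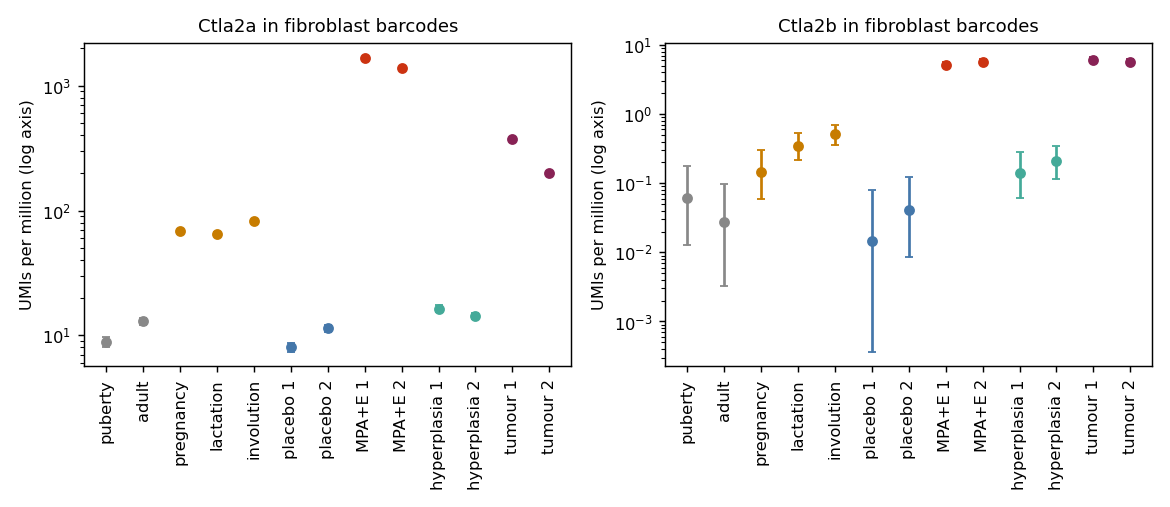
Ctla2a (left) and Ctla2b (right) in fibroblast barcodes of each library, in CPM on a log axis. Points are single libraries colored by group, and bars are 95% Poisson intervals. For Ctla2a both MPA+E points (1674 and 1375) lie above both tumour points (371 and 199), whereas for Ctla2b the 4 points lie between 5.22 and 6.12.

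The stages had 1 library each, so their order has no replicate check. Ctla2a was 5.26-fold higher in pregnancy than in the adult (counting interval 4.89 to 5.66) and 1.45-fold higher in the adult than at puberty (1.29 to 1.63). Lactation stood at 0.954 times pregnancy (0.911 to 0.999) and involution at 1.20 times (1.15 to 1.26). The duplicates of other groups differed 1.86-fold in tumours, 1.22-fold under MPA+E and 1.14-fold in hyperplasia, and placebo 1 stood at 0.708 times placebo 2. Neither the step from puberty to adult nor the steps among pregnancy, lactation and involution exceeded the tumour difference. That pair came from mice of 45 and 17 weeks, and no other pair differed by as much as the step from puberty to adult. For Ctla2b the counting intervals of adult against puberty (0.0367 to 3.84), lactation against pregnancy (0.978 to 6.57) and involution against lactation (0.845 to 2.60) all included 1. Involution exceeded pregnancy 3.47-fold for Ctla2b (1.53 to 9.22), on 38 against 7 UMIs.

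Both genes were higher in each MPA+E library than in either placebo library, which is the contrast that chose them. Ctla2a averaged 1524 ± 212 CPM (SD, n = 2) under MPA+E against 9.70 ± 2.34 (SD, n = 2) under placebo, a ratio of 157. Ctla2b averaged 5.48 ± 0.375 CPM against 0.0280 ± 0.0192 (SD, n = 2 each). In the edgeR fit over 15642 genes their log2 fold changes were 7.29 (SE 0.30) and 7.54 (SE 0.37), ranks 11 and 7 by rise. In that comparison 4.33% of all genes tested were called at an adjusted p of 0.05 and 2.69% were called higher. The Ctla2b value rests on 4 placebo UMIs, and was 6.94 without placebo 1, 8.50 without placebo 2 and 4.61 with non-fibroblasts kept.

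The pellet level was also far above that of pregnancy. MPA+E exceeded day 14.5 of pregnancy 22.4-fold for Ctla2a, and the single libraries gave 24.6 (23.8 to 25.5) and 20.2 (19.5 to 20.9). For Ctla2b the ratio was 37.2, with wide limits of 17.1 to 88.6 for MPA+E 1 and 18.8 to 97.5 for MPA+E 2, and it was 60.2 with a mitochondrial limit of 5% and 12.5 with non-fibroblasts kept. Pregnancy has 1 library, so the difference has no replicate check on that side. With all barcodes that carried any of 6 endothelial markers removed, the Ctla2a ratio was 17.0.

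Tumour fibroblasts expressed both genes at much higher levels than fibroblasts of the paired hyperplastic glands. Ctla2a averaged 285 ± 121 CPM (SD, n = 2) in tumours against 15.4 ± 1.47 (SD, n = 2) in hyperplasia, an 18.6-fold ratio. Ctla2b averaged 5.92 ± 0.273 CPM against 0.174 ± 0.0463 (SD, n = 2 each), a 34.0-fold ratio. In the limma-voom fit of 6 libraries the log2 fold changes were 4.15 for Ctla2a (SE 0.32, adjusted p = 0.00228) and 5.03 for Ctla2b (SE 0.40, adjusted p = 0.00230). These were ranks 261 and 141 by rise among 16302 genes, of which 29.3% were called in either direction and 15.4% were called higher. The rise was present in both mice, 22.6-fold and 13.9-fold for Ctla2a and 43.2-fold and 27.7-fold for Ctla2b.

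Neither gene was called between hyperplasia and the puberty and adult glands pooled as normal. The log2 difference was 0.45 for Ctla2a (SE 0.33, limma-voom adjusted p = 0.361) and 1.90 for Ctla2b (SE 0.64, adjusted p = 0.0913), in a comparison where 14.0% of genes were called and 7.7% were called higher. The Ctla2b value rests on 23 hyperplasia UMIs against 5 and depended on the tool, with an edgeR adjusted p of 0.0464. No hormone pellet was given in the raGFP-Wnt1 mice per the labels. Their own hormone levels were not measured, and the part of hormones in the tumour levels was not tested.

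How the transcripts were spread over cells differed between the hormone and tumour libraries. Ctla2a had at least 1 UMI in 1.28% of puberty fibroblasts, 1.57% of adult, 3.52% of pregnancy, 4.63% of lactation and 10.4% of involution fibroblasts, and 1.71% and 2.50% in the placebo libraries. The shares were 26.6% and 22% under MPA+E, 4.32% and 3.67% in hyperplasia, and 47.8% and 55% in tumours. At 2000 UMIs per cell they were 14.4% and 13.2% under MPA+E, 24.5% and 22.4% in tumours, 5.43% in involution, 2.40% in pregnancy, 2.05% in lactation, 1.41% and 1.24% in hyperplasia, and 1.05% or less in puberty, adult and placebo. The tumour libraries therefore had the larger share of cells with the transcript and the MPA+E libraries the larger amount.

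A few cells carried nearly all Ctla2a transcripts after MPA+E. This division was made after the values were seen and is given as a description. Barcodes with 10 or more Ctla2a UMIs were 11.2% (575 cells) and 9.35% (813 cells) of MPA+E fibroblasts and held 99% and 98.2% of the Ctla2a UMIs. Their median was 178 and 97 Ctla2a UMIs, the highest cell held 2057, and their pooled level was 11805 and 11305 CPM against 19.3 and 28.0 in the remaining fibroblasts. Pericytes, epithelial, Schwann and muscle cells of the same libraries showed 15.3 CPM (10.8 to 21.0) and 12.8 CPM (8.30 to 18.9), and 12.1% and 6.73% of their barcodes had a UMI (median depths 7564 and 4798 UMIs). The remaining fibroblasts lay inside that interval in MPA+E 1 and above it in MPA+E 2. Free RNA in the droplets gives such UMIs, and its part in the low-level cells was not tested.

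The tumours had a similar share of such cells, with fewer Ctla2a UMIs for their depth in them. Barcodes with 10 or more Ctla2a UMIs were 10.7% and 12.4% of tumour fibroblasts, at 1784 and 919 CPM, and held 72.9% and 66.2% of the UMIs. The remaining tumour fibroblasts still stood at 119 and 78.7 CPM, against 1.21 and 1.10 CPM in the other non-endothelial classes of those libraries. Median depth was 10824 UMIs in tumour 1 and 20256 in tumour 2, against 16827 and 10216 under MPA+E. At 2000 UMIs per cell, 10 UMIs were reached by 1.00% and 0.368% of them, against 7.65% and 6.09% under MPA+E and 0.216% in pregnancy. In the untreated normal glands these cells were rare. They were 0.154% of puberty fibroblasts (11 cells), 0.201% of adult (24 cells), 0.478% of pregnancy (55 cells), 0.757% of lactation (64 cells) and 1.44% of involution fibroblasts (142 cells). Their pooled level was 2570 to 7841 CPM in the stages and 1893 and 1304 CPM in placebo. Since 10 UMIs are a larger part of a shallow cell, these levels depend on depth and set no order among the libraries.

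**Figure D2:**
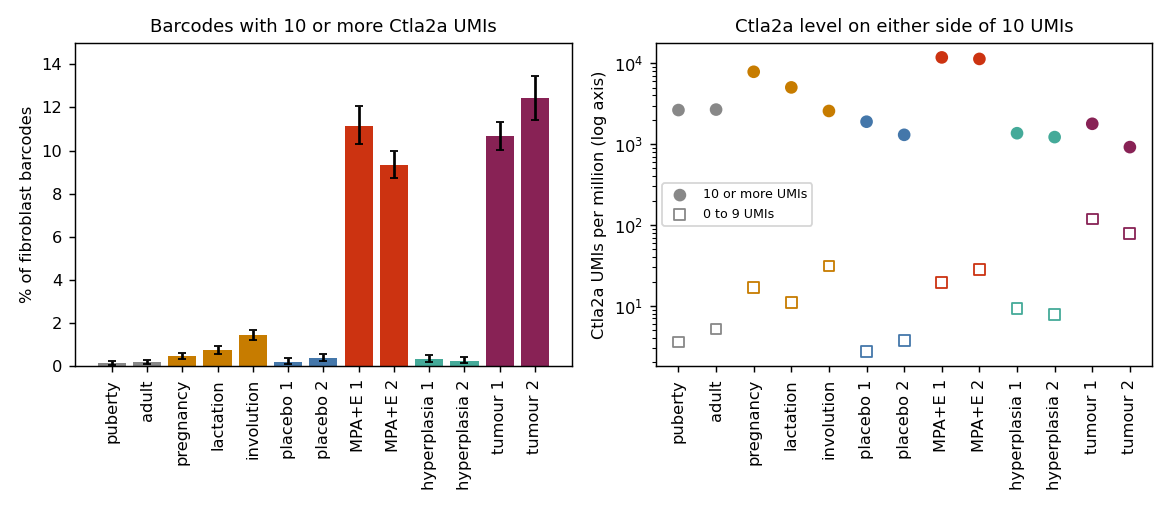
Left, the percent of fibroblast barcodes with 10 or more Ctla2a UMIs in each library, with 95% binomial intervals. Right, the pooled Ctla2a level of those barcodes (filled circles) and of the rest (open squares) in CPM on a log axis, where the MPA+E circles (11805 and 11305) are highest but the tumour squares (119 and 78.7) lie above the MPA+E squares (19.3 and 28.0).

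Endothelial cells also express Ctla2a, so their markers were counted in the cells rich in it. None of the 575 such cells in MPA+E 1 and 2 of the 813 in MPA+E 2 carried 2 or more of Pecam1, Cdh5, Kdr, Vwf, Emcn and Egfl7, and Pecam1 was at 0 by the rule. Exactly 1 marker was present in 316 of the 575 and 343 of the 813. Of all fibroblasts in those libraries, 3619 of 5152 and 6487 of 8697 had none. The Ctla2a-rich cells thus carried a marker more often than all fibroblasts did. They were also deeper, with medians of 20557 against 16303 UMIs in the rest of MPA+E 1 and 12619 against 9991 in MPA+E 2. The most abundant marker was Kdr, which the remaining MPA+E fibroblasts also expressed (69.7 against 39.0 CPM in MPA+E 1). Without any barcode bearing 1 of the 6 markers, Ctla2a still measured 1153 and 1163 CPM under MPA+E, 368 and 209 in tumours and 67.9 in pregnancy. Barcodes called doublets by Scrublet were 9.39% and 15.3% of the Ctla2a-rich MPA+E cells, against 5.16% and 8.69% of all fibroblasts there.

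The genes that went with high Ctla2a within a library differed in part between settings (mean log2 difference between cells with 10 or more Ctla2a UMIs and the rest, 20 CPM added to each, with no test). Across the 5 stages and placebo these cells were richer in Pappa2, a protease that frees IGFs from their binding proteins (2.57, higher in 6 of 7 libraries), the prolactin receptor Prlr (2.49, 7 of 7), Lgr5, a receptor for R-spondins (1.85, 7 of 7), and the growth factor Igf1 (1.57, 7 of 7). Ptn and S100a4 each stood at 1.91 there (7 of 7). Under MPA+E neither Pappa2 (0.06) nor Prlr (0.32) stood out, and Igf1 was lower (-1.31 in the mean, lower in both libraries). There Il1rl1, the receptor of IL-33 (1.43), Tgm2, a transglutaminase (1.40), and Greb1, a classical steroid target (1.16), were higher in both. In the stages and placebo the same 3 genes stood at 0.54 (6 of 7), 0.61 (7 of 7) and 0.65 (7 of 7). Prg4 (1.16) and Prkg2 (1.09) were also higher in both MPA+E libraries. In the stages and placebo these went the other way, at -0.22 (higher in 2 of 7) and -0.53 (1 of 7). In hyperplasia Ccn5 (1.82) led, followed by Bst2 (1.43), from 20 and 22 Ctla2a-rich cells. In tumours C1qtnf3 (1.65), Ecrg4 (1.27), Ccn3 (1.15) and the matrix genes Comp, Col8a2 and Col11a1 led. Ccn5 was also higher in both MPA+E libraries (1.13), in both tumours (1.12) and in 5 of 7 stage and placebo libraries (0.85). Greb1 was higher in the Ctla2a-rich cells of all 13 libraries, and Enpp2, which makes lysophosphatidic acid, was lower in 12 of 13. For Greb1 some libraries rest on little, with 10 rich cells in placebo 1 (10.2 against 6.02 CPM) and 2.64 against 1.31 CPM in tumour 1.

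Fibroblast states were rebuilt by clustering each experiment without the 2 genes and named from state markers, so these values are descriptions and names may differ from those of the study. In the stages a small unnamed cluster of 148 cells, led by Pappa2, Lgr5 and Prlr, had by far the highest level. It had 4 adipogenesis-regulatory markers 2-fold higher, but too few cells to be named. Its Ctla2a measured 487, 1106, 6752, 10574 and 2145 CPM in the puberty, adult, pregnancy, lactation and involution libraries, from 22, 36, 39, 22 and 29 cells. These few cells held 21.0%, 38.2%, 47.5%, 48.5% and 7.92% of the Ctla2a UMIs of their library. Pgr-high-like cells stood at 13.1, 24.0, 196, 176 and 130 CPM in the same order of stages. In involution the preadipocyte-like cells, at 167 CPM, held 54.1% of the UMIs.

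Under MPA+E the clusters of the hormone experiment stood higher in both treated libraries than in both placebo libraries by very different amounts. In an unnamed cluster of 27 to 34 cells per library no difference could be shown, with 3 and 2 UMIs under MPA+E and 0 in placebo. Pgr-high-like cells went from 26.3 and 36.0 CPM in placebo to 4406 and 3534 CPM, and held 51.7% and 59.2% of all Ctla2a UMIs of the MPA+E libraries. This cluster was 5.53% and 6.34% of placebo fibroblasts and 16.1% and 18.4% of MPA+E fibroblasts, so its members may differ between the groups. The main progenitor-like cluster stood at 3.97 and 4.95 CPM in placebo and 2342 and 939 CPM under MPA+E, where it held 23.6% and 14.2% of the UMIs. A small progenitor-like cluster reached 5597 and 2591 CPM, from 9.41 and 1.94. Preadipocyte-like cells reached 1250 and 625 CPM. Lobular-like cells reached only 77.8 and 187, adipogenesis-regulatory-like cells 97.5 and 239, and the cluster led by Igfbp2 and Pla2g7 49.5 and 58.1. An unnamed cluster led by Myh11 and Acta2 stood at 543 CPM in MPA+E 1 (19 cells) and 2167 CPM in MPA+E 2 (176 cells). Another, with 6 cycling markers 2-fold higher, stood at 15.7 CPM (25 cells) and 2031 CPM (44 cells), so the 2 libraries differed widely there. The highest single value, 24718 CPM, belonged to 40 cells of MPA+E 2 in an unnamed cluster led by Rxfp1, the relaxin receptor, and Sim2. That cluster held 3 cells in MPA+E 1, at 6987 CPM, and 35 and 40 cells in placebo, at 138 and 388 CPM. Ctla2b in Pgr-high-like cells was 14.5 and 15.1 CPM under MPA+E.

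In the raGFP-Wnt1 mice the higher level in tumours was likewise spread over states. Preadipocyte-like cells went from 29.1 and 44.8 CPM in hyperplasia to 707 and 452 in tumours, and progenitor-like cells from 34.2 and 13.5 to 240 and 173. The 2 myofibroblastic-like clusters held a larger share of the fibroblasts in both tumours. The first was 0.877% and 0.802% of hyperplasia fibroblasts (2.02 and 23.4 CPM) but 16.0% and 40.6% of tumour fibroblasts (454 and 125 CPM), and held 25.3% and 30.6% of the tumour Ctla2a UMIs. The second was 4.77% and 4.60% of hyperplasia fibroblasts (2.15 CPM in both) and 19.4% and 20.5% of tumour fibroblasts (257 and 300 CPM), and held 13.8% and 25.8%. The make-up of the fibroblasts thus differed between these libraries beside the level within clusters. The unnamed cluster led by the matrix genes Thbs4 and Comp reached 848 and 497 CPM, with Ctla2a in 90% and 93.1% of its cells, and the highest Ctla2b values there of 17.8 and 15.2 CPM. It had 4 myofibroblastic markers 2-fold higher, but stayed unnamed because its leading genes held a lobular marker, Thbs4, and no myofibroblastic one. ECM remodelling-like cells reached 91.6 and 54.6 CPM in tumours, from 0.242 and 1.61 in hyperplasia.

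**Figure D3:**
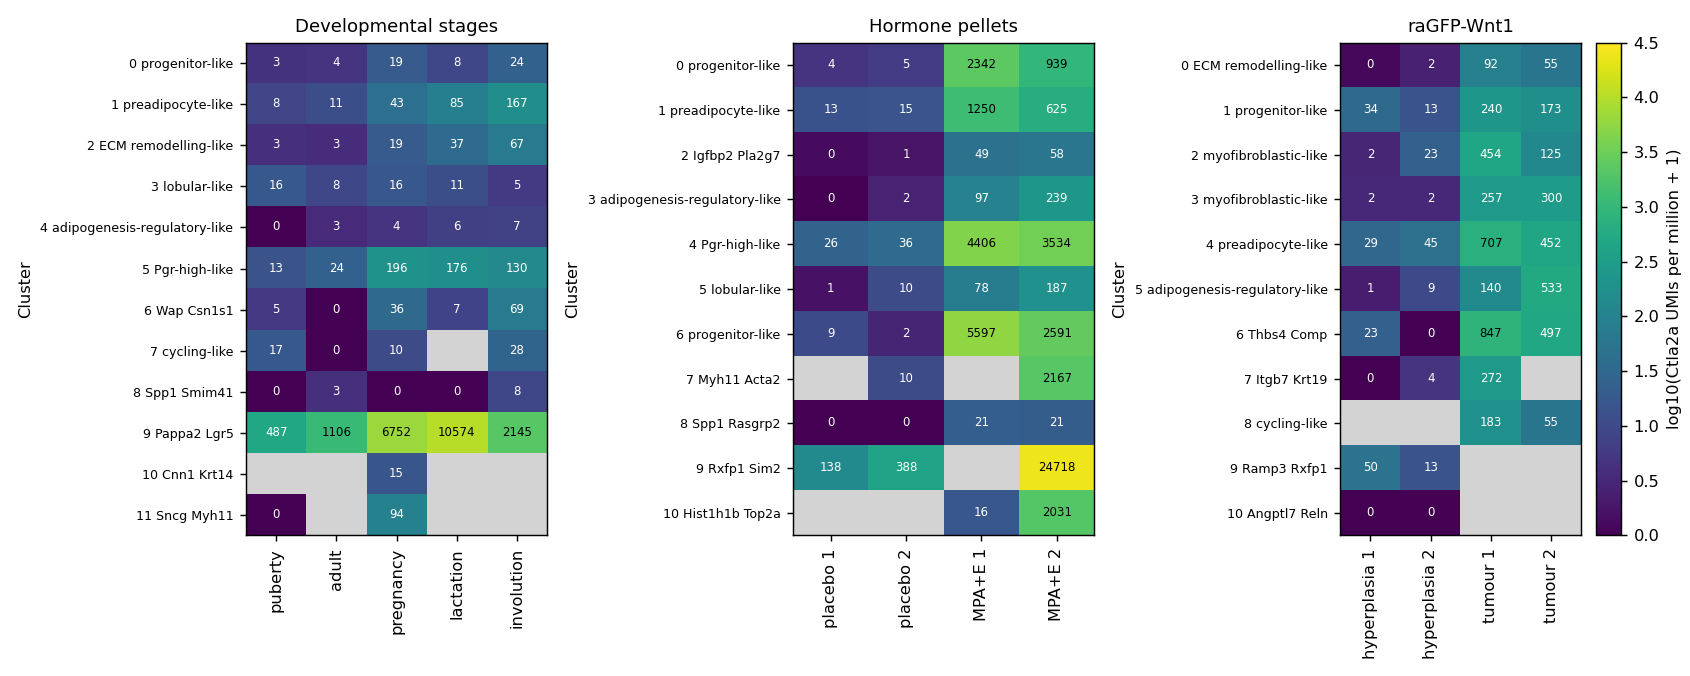
Ctla2a CPM in each fibroblast cluster (rows, with its name or its 2 leading genes) and library (columns) of the stage, hormone and raGFP-Wnt1 experiments, on a log10 color scale with the value printed. Grey marks fewer than 20 cells. The row led by Pappa2 is highest in all stages, and rows are brighter in the MPA+E than in the placebo columns where both have 20 cells, although the MPA+E values of cluster 8 (21 and 21) rest on 3 and 2 UMIs.

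Endothelial cells that escaped the CD31 sort expressed both genes at a high level in every library where they could be measured. A class was called from at least 3 of its markers with low fibroblast genes, and compared with fibroblasts of the same library outside MPA+E where it had 20 or more barcodes. Endothelial Ctla2a measured 938, 1870, 2790, 1910 and 2497 CPM from puberty through involution and 1574 CPM in placebo 1, higher than fibroblasts in 6 of 6 libraries. The mean log2 difference was 6.03 (SD 1.14; exact two-sided sign-flip permutation test, p = 0.0312, the smallest 6 libraries can give; adjusted p = 0.0312 over 6 tests). Endothelial Ctla2b ranged from 71.4 to 267 CPM, also higher in 6 of 6 (mean log2 difference 6.77, SD 0.82; exact permutation adjusted p = 0.0312). In MPA+E 1 and 2 endothelial Ctla2a stood at 1721 and 1581 CPM, inside the range of the other 6 libraries, while the fibroblasts of those 2 libraries stood far above all others.

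Pericytes and epithelial cells had little Ctla2a. Outside MPA+E, in libraries with at least 20 cells of the class, epithelial cells ranged from 0 to 1.22 CPM over 7 libraries, with 4 UMIs in 755 barcodes in pregnancy (1.04 CPM) and 2 UMIs in 240 barcodes in tumour 2 (0.774 CPM), where fibroblasts measured 68.0 and 199 CPM. Pericytes ranged from 0 to 15.2 CPM over 7 libraries, the highest in involution, where fibroblasts measured 81.8 CPM. The 0 UMIs of pericytes in puberty and adult, and of epithelial cells in adult and placebo 1, allowed the fibroblast level (95% Poisson upper limits 21.6, 63.6, 14.7 and 13.7 CPM). No test is therefore given for them. For Ctla2b both classes held 0 or 1 UMI in every library. The 95% Poisson intervals lay below those of fibroblasts for epithelial cells of tumour 2 (1 UMI, 0.387 CPM, upper limit 2.16, against 5.73 CPM in fibroblasts, lower limit 5.24) and for pericytes of MPA+E 1 and 2 (upper limits 2.89 and 4.62, against 5.22 and 5.75 CPM, lower limits 4.75 and 5.27). These intervals cover counting error only and take UMIs as independent, although 15 fibroblasts of MPA+E 1 held 10 or more Ctla2b UMIs each. By share of cells with a UMI, the 95% binomial intervals of pericytes and fibroblasts overlapped. They were 0% to 2.16% against 2.01% to 2.86% in MPA+E 1, and 0.0102% to 2.22% against 1.55% to 2.12% in MPA+E 2. For pericytes no difference is therefore shown, and in the other libraries none could be shown at this depth.

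The balance between the genes differed with cell class. Ctla2b made up 0.311% and 0.416% of the UMIs of the pair in MPA+E fibroblasts, 0.179% to 0.687% in the stages and placebo, 0.856% and 1.42% in hyperplasia, and 1.62% and 2.79% in tumours. In endothelial cells the share was 2.96% to 12.5% over 8 libraries, above that of the fibroblasts of the same library in each, and it was 7.37% and 4.46% in the MPA+E libraries. The same cells tended to carry both transcripts. Of the 124 and 158 MPA+E fibroblasts with Ctla2b, 83.9% and 78.5% also had Ctla2a, against 26.6% and 22% of all fibroblasts. In tumours 89.0% and 86.6% did, against 47.8% and 55% of all fibroblasts there. In the other libraries the share ran from 28.6% (hyperplasia 1, 7 cells with Ctla2b) to 100% (puberty, 3 cells, and placebo 1, 1 cell). These shares were not thinned, and the part of depth in them was not tested.

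**Figure D4:**
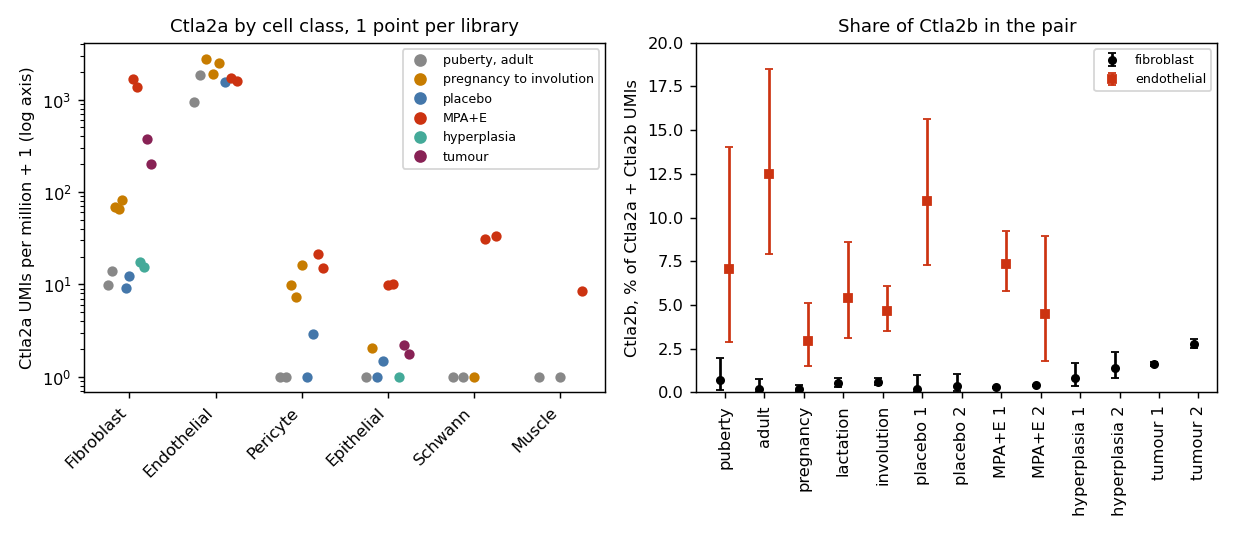
Left, Ctla2a CPM plus 1 on a log axis, by cell class, with 1 point per library that had at least 20 barcodes of the class, colored by group. Right, Ctla2b as a percent of the UMIs of both genes in fibroblasts (black circles) and endothelial cells (red squares), with 95% binomial intervals. Endothelial points lie between 938 and 2790 in all libraries shown, and endothelial Ctla2b shares (2.96% to 12.5%) exceed the fibroblast shares.

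Steroid receptor transcripts gave a split within each library that the choice of genes had not used. Each cell was thinned to 2000 UMIs, and shallower cells were left out. Ctla2a was higher in fibroblasts with an Esr1 (estrogen receptor alpha) UMI than in those without in 12 of 13 libraries, with a mean log2 difference of 0.68 (SD 0.85; permutation test by sign flips, two-sided p = 0.00684, adjusted over 4 tests 0.0273). The exception was tumour 1, and the widest gap was in pregnancy, at 205 against 38.9 CPM. The gap was small in adult (11.3 against 10.6 CPM) and placebo 2 (10.2 against 9.83), on 24 and 13 UMIs in Esr1-bearing cells. The share of cells with Ctla2a was lower with Esr1 in adult, involution and both tumours, and higher in the rest. The test counts all 13 libraries as separate, although hyperplasia and tumour of the same number share a mouse. With 1000 UMIs per cell the adjusted p was 0.250. For Pgr, the progesterone receptor, the libraries were split, with Ctla2a higher in 7 of 13 (mean -0.84, SD 2.94; permutation p = 0.355). Cells with a Pgr UMI had 4389 against 1242 CPM in MPA+E 1, 2960 against 1027 in MPA+E 2, 129 against 55.8 in pregnancy and 46.0 against 9.28 in hyperplasia 2. Placebo 2 and hyperplasia 1 had no Ctla2a UMI in 130 and 24 Pgr-bearing cells, and each tumour had only 7 such cells. Without thinning the mean for Pgr was 0.79 (permutation adjusted p = 0.0269). Ctla2b gave no call for Pgr (-0.37, permutation adjusted p = 0.355) or Esr1 (0.27, permutation adjusted p = 0.355).

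The receptors themselves shifted in both contrasts. Under MPA+E Pgr rose by 2.18 on the log2 scale (SE 0.33, edgeR adjusted p = 0.0347), from 9.59 and 13.7 CPM to 41.4 and 63.6. Pgr measured 43.5 CPM at puberty, 41.1 in the adult and 34.8 in pregnancy. Esr1 fell by 1.71 (SE 0.19, adjusted p = 0.0158). Nr3c1, the glucocorticoid receptor, did not pass by edgeR (log2 -0.42, adjusted p = 0.141) but did by DESeq2 (adjusted p = 0.0451). In tumours Esr1 (-1.47) and Nr3c1 (-0.95) fell against hyperplasia, and Pgr stood at 2.62 and 27.7 CPM in hyperplasia and at 0.361 and 0.775 CPM in tumours (log2 -4.12, SE 1.5, limma-voom adjusted p = 0.0803). The 2 hyperplasia libraries were thus more than 10-fold apart. With the mouse as replicate block Pgr passed (log2 -4.46, adjusted p = 0.0182). The part of any receptor in the Ctla2a levels was not tested.

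Other genes of protease control were compared from lists written down with earlier results known. The first list held lysosomal proteases, mostly cysteine cathepsins, with Ctsa (a serine carboxypeptidase), Ctsd (an aspartic protease) and Lgmn (legumain, another cysteine protease) also among its tested members. Under MPA+E 1 of 12 tested was called, where 4.33% of all genes were. That gene was Ctsh, an aminopeptidase (log2 0.93, SE 0.12, edgeR adjusted p = 0.0246). With a replicate block 2 were called, where 2451 of all 15642 genes were. Ctsl itself, the textbook target, went from 1179 and 1460 CPM with placebo pellets to 1020 and 1226 with MPA+E pellets and was not called (log2 -0.23, edgeR adjusted p = 0.664). In tumours 6 of 13 were called (Ctsc, Ctsd, Ctso, Ctss, Ctsw and Lgmn), where 29.3% of all genes were. With the mouse as replicate block 5 were called, without Ctsw (limma-voom adjusted p = 0.0678), where 4837 of all 16001 genes were. Ctsc, which activates granule serine proteases (log2 2.71, limma-voom adjusted p = 0.00373), and Lgmn (1.58, adjusted p = 0.0106), rose, whereas Ctso fell by 0.92 on the log2 scale (adjusted p = 0.0345). The 8 placental cathepsins held at most 2 UMIs in any library and were not tested.

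Counts of calls among other protease inhibitors are given beside the 4.33% of all genes called under MPA+E and the 29.3% called in tumours. None of 7 tested cystatin-type inhibitors was called under MPA+E by edgeR without a replicate block, where 2 had an unadjusted p under 0.05, or by DESeq2. With the block 2 were called, where 2451 of all 15642 genes were. In tumours 3 were called, of which Cst3, the abundant extracellular cystatin C, fell by 0.74 on the log2 scale (limma-voom adjusted p = 0.0339). Ahsg and Kng2, plasma proteins of low count here (0.634 and 2.54 CPM in tumour 1), rose. Of serpins and other inhibitors, 3 of 19 were called under MPA+E, all higher (5 with the replicate block). Those 3 were Serpinb6b (1.85), Serpine2 (protease nexin, 1.42) and Timp1 (metalloproteinase inhibitor, 0.70). In tumours 8 of 18 were called, all higher, among them Timp1 (4.80, limma-voom adjusted p = 0.00227) and Serpine2 (3.48, adjusted p = 0.00208). With the mouse as replicate block 7 were called, without Serpinh1 (limma-voom adjusted p = 0.0557).

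Known steroid target genes responded in part. Under MPA+E 4 of 21 were called higher and 2 lower, where 4.33% of all genes were called and 2.69% were called higher. With the replicate block 12 of the 21 were called, where 2451 of all 15642 genes were. Greb1 (3.93, SE 0.14, edgeR adjusted p = 0.00367) and Fkbp5, a chaperone of steroid receptors (1.19, adjusted p = 0.0105), rose with Hsd11b1 and Pgr, whereas Igf1 fell by 1.41 (adjusted p = 0.00745) and Cited1 fell by 2.20 (adjusted p = 0.0211). The median over the list was -0.01, against 0.01 over all genes. In tumours 3 of 21 were called higher and 9 lower, where 29.3% of all genes were called and 15.4% were called higher, with a median of -0.87 against -0.01 over all genes. With the mouse as replicate block 15 of the list were called, where 4837 of all 16001 genes were. Greb1 was 4.04 and 17.8 CPM in hyperplasia and 1.51 and 6.5 in tumours (log2 -1.53, limma-voom adjusted p = 0.210, and 0.0172 with the replicate block), and Fkbp5 was not called there (0.47, limma-voom adjusted p = 0.361). The MPA+E counts of called genes depend on both placebo libraries, since among the 59 tested genes of the cathepsin, cystatin, serpin and steroid target lists the number called fell from 10 to 1 without placebo 1 and to 1 without placebo 2.

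Few neighbours on the chromosome were abundant enough to test. Of 30 genes starting within 500 kb, 16 were in the count tables, and 2 were tested under MPA+E and 3 in tumours. Among them 4930486L24Rik rose under MPA+E (log2 2.10, SE 0.20, edgeR adjusted p = 0.0118) and in tumours (1.90, SE 0.33, limma-voom adjusted p = 0.0133), at 3.38 and 3.57 CPM under MPA+E and 0.777 and 0.846 in placebo. Dapk1, a death-associated kinase, did not pass in either (log2 -0.51, edgeR adjusted p = 0.0835, and -1.30, limma-voom adjusted p = 0.0584), but was lower past the threshold by DESeq2 under MPA+E (adjusted p = 0.00741) and with the replicate block in tumours (adjusted p = 0.0410).

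Over the 13 libraries Ctla2a and Ctla2b had a Pearson r of 0.904 on log2(CPM + 1). This is a description, since libraries of a group share their treatment and the MPA+E and placebo libraries among them chose both genes. Of 9648 genes with a mean of at least 5 CPM, those most like Ctla2a were Spon1, an extracellular matrix protein (r = 0.875), Rida (0.867), Plscr2 (0.865), Ccdc80 (0.839), 2310022B05Rik (0.838), Pon3 (0.838), Tmem38b (0.837), Mgat5 (0.832), Slc25a30 (0.814) and Itgav (0.811). Spon1 ranged from 124 to 563 CPM, a far narrower span than that of Ctla2a. Most like Ctla2b were Dio3, which inactivates thyroid hormone (r = 0.925), Tmem38b (0.925), Spon1 (0.922), 2310022B05Rik (0.909) and Ctla2a. Dio3 measured 11.0 and 7.32 CPM under MPA+E, 15.9 and 25.3 in tumours and 0.230 and 0.236 in placebo, so like Ctla2b it did not place the tumours below MPA+E.

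Few barcodes lay near the fibroblast threshold. Under MPA+E the 7 and 16 barcodes with 45 to 50 fibroblast UMIs per 10000 held no Ctla2a UMI, and the 8 and 28 barcodes with 50 to 55 held 74 and 158. In tumour 1 the 74 barcodes just outside held 211 Ctla2a UMIs (280 CPM) and the 93 just inside held 182 (202 CPM). In tumour 2 the order was the other way, with 38 UMIs in 27 barcodes just outside (89.4 CPM) and 56 in 28 just inside (132 CPM).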

How the data were processed

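Single-cell 3′ libraries (10x Chromium) were processed by the authors with Cell Ranger 6.1.2 on mm10, per the labels, and the deposited matrices, filtered for cells, give UMI counts that are not normalized. From these counts, fibroblast barcodes were selected by the stated rule and summed per library. CPM is counts per 1000000 summed UMIs. MPA+E was compared with placebo by edgeR 4.0.16 (quasi-likelihood, TMM, filterByExpr), and tumour, hyperplasia and normal (puberty and adult) by limma 3.58.1 (voom), with Benjamini-Hochberg adjustment over all genes tested and a threshold of 0.05. Single values were compared within libraries by exact sign-flip permutation tests. DESeq2 1.42.0 was an alternative. Clusters came from Seurat 5.3.0 (1000 features without Ctla2a and Ctla2b, 30 principal components, resolution 0.3). A cluster was named from at least 3 markers that were 2-fold higher. Clusters where 2 states tied, where more leading genes marked another state, or with under 0.5% of an experiment's cells stayed unnamed. So did far shallower clusters with no marker of the state among the leading genes. Doublets were called by Scrublet (scanpy 1.11.5) and kept, and removed in an alternative. All scripts that tested many genes were tested on simulated data.

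The group called drug in the labels was read as MPA+E from their protocol text. Named genes were the 2 members, fixed lists of cathepsins, protease inhibitors, steroid targets and receptors, neighbours within 500 kb, and the 10 and 5 genes most correlated with Ctla2a and Ctla2b. The members and lists were chosen with earlier results of these data known, and the division at 10 Ctla2a UMIs, with the genes named from it, after the values were seen. Tumour and hyperplasia of the same number are from the same mouse, and their deviations from the group means correlated at r = 0.0954 over 16001 genes. Replicates of the hormone groups were separate pairs of females. Promoters came from the RefSeq table, transcripts and coordinates from the GRCm38 annotation. Protein sequences were not used here, and 1 listed gene is not reported here.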

Additional observations from a re-analysis of the deposited data

Results flagged for a closer look

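In fibroblasts split by a Pgr UMI at 2000 UMIs per cell, Ctla2a differed in opposite directions between groups of 2 libraries, on very few UMIs outside MPA+E. It was higher with Pgr in both MPA+E libraries (mean log2 1.67) and lower in both placebo libraries (-1.89), a gap of 3.57. Against the tumours (-5.0) the gap was 6.68. For Ctla2b the mean was 0.90 under MPA+E, -0.19 in hyperplasia and -2.63 in tumours, gaps of 1.09 and 3.53. None of these differences was tested, and the sizes outside MPA+E are set largely by counts of 0 or 1 and the 1 CPM added before taking logs, so no difference is shown. Each tumour had 7 fibroblasts with Pgr, holding 0 and 1 Ctla2a UMIs, and the placebo libraries had 80 and 130, holding 1 and 0. No Ctla2b UMI was seen in Pgr-bearing cells of hyperplasia or tumour, and 7 in each MPA+E library. Without thinning the mean Pgr difference over all 13 libraries was above 0 for both genes.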

How the results depend on the processing

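The rise of both genes in tumours kept its direction and its call under all 14 alternatives, at log2 3.68 to 4.63 for Ctla2a and 4.77 to 5.30 for Ctla2b, with limma-voom adjusted p up to 0.0368 and 0.0417. With the mouse as replicate block the values were 4.15 (adjusted p = 0.0128) and 5.02 (adjusted p = 0.0131). The endothelial class tests kept theirs under the 4 alternatives run. Under MPA+E the number of genes called, 678 by edgeR, was 1358 by DESeq2 and 2451 with a replicate block, and the listed genes called went from 10 to 21 with it. By the labels the hormone libraries share only a replicate number. Yet deviations of same-numbered hormone libraries from their group means correlated at r = 0.396 over 15642 genes. For tumour and hyperplasia of the same mouse r was 0.0954. What same-numbered hormone libraries share was not tested, and the main fit leaves it out. The block changed no call of the members elsewhere. Leaving out 1 library gave 22 to 900 genes called and 1 to 13 listed genes (22 without placebo 1, 42 without placebo 2), log2 7.01 to 7.63 for Ctla2a and 6.94 to 8.50 for Ctla2b. Ctla2b was 7.93 with a mitochondrial limit of 5% and 4.61 with non-fibroblasts kept. In tumours 242 to 7120 genes were called with 1 library left out (4777 with all), fewest without hyperplasia 1, and 1 to 4810 for hyperplasia against normal (2280 with all), fewest without hyperplasia 2. Ctla2b in hyperplasia against normal was 2.01 by edgeR (adjusted p = 0.0464) and -0.63 with non-fibroblasts kept. Without thinning the Pgr split gave 0.79 for Ctla2a and 0.36 for Ctla2b, and the Esr1 split 0.23 for Ctla2b (permutation adjusted p = 0.0309). At 1000 UMIs per cell the Esr1 split gave 0.65 for Ctla2a (permutation adjusted p = 0.250) and -0.14 for Ctla2b. The Ctla2a ratio of pregnancy to adult was 5.83 with doublets removed and 4.63 with non-fibroblasts kept, and that of MPA+E to pregnancy 21.2 and 19.9, or 17.0 with no endothelial marker UMI, an alternative added after seeing the data. With non-fibroblasts kept the Ctla2b ratios were 0.910 and 12.5, and the latter was 60.2 with a mitochondrial limit of 5%. Endothelial cells, which hold far more Ctla2b, are among the barcodes then added. Their part in these shifts was not tested, nor was any other cause. Depth limits Ctla2b, with 1 to 8 UMIs in the lowest 6 libraries.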
